A study of Homo sapiens with 12 samples.

Results

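HK2 is an immortalised human kidney epithelial line, labelled normal, and it was set here against A704 and CAKI-1, 2 human kidney epithelial lines labelled cancer. The comparison used the 4 libraries of HK2, the 4 of A704 and the 4 of CAKI-1, which are all 12 libraries of the series. The genes described are those that differed in HK2 from each of the other lines in the same direction, at an adjusted p under 0.05 and a log2 difference of at least 1 in each comparison. There were 847 such genes higher in HK2 and 755 lower, of 12276 genes tested. The same letters are also the symbol of hexokinase 2; here HK2 always means the cell line.

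Each line was transfected for 48 h with 1 of 4 siRNAs at 25 nM: a control siRNA with no target, an siRNA against LATS, and the PTPN14 siRNAs 1 and 2, called PTPN14-1 and PTPN14-2 after the sample titles. The sample descriptions number the PTPN14 siRNAs the other way round. PolyA RNA was sequenced from 1 library per line and siRNA, so a line's 4 libraries differ by siRNA and are matched between lines by it. The labels do not say that a line's libraries came from separate cultures, so the p-values speak only to the scatter among these samples, which may be technical. The growth protocol names McCoy, keratinocyte and RPMI media, each with serum. Which line had which follows only from the order of its lists (keratinocyte medium for HK2), and line and medium cannot be told apart. HK2 is the single line labelled normal, so a difference between normal and cancer cells cannot be told apart from a difference between lines.

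HK2 cells are known as adult proximal tubule cells immortalised with papillomavirus genes. The proximal tubule reabsorbs most of the filtered salt, glucose and protein, and its cells carry brush border enzymes and many transporters. In culture such cells keep kidney transcription factors but lose much of the transporter programme. A704 and CAKI-1 are established renal carcinoma lines. The siRNAs were aimed at the Hippo pathway, in which LATS1 and LATS2 kinases and the phosphatase PTPN14 hold back the coactivators YAP1 and WWTR1 (also called TAZ), which drive transcription together with TEAD factors.

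The deposited values were read as FPKM, fragments per kilobase of transcript scaled to library size; the unit was inferred from the values. Low values of single-exon genes lay on whole-read steps and gave an effective depth of 17.1 to 23.3 M reads a library, and 10862 to 11082 entries a library lay above 1 FPKM. Summed FPKM ran from 344334 to 396360, with the 4 CAKI-1 libraries at the top. Differences were taken as log2(FPKM + 1) and understate those of low genes. Where 4 values of a line are given, they stand in the order control, LATS, PTPN14-1, PTPN14-2. The median difference over all genes tested was 0.044 from A704 and 0.011 from CAKI-1, so neither comparison was shifted as a whole.

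KRT19, FN1 and WWTR1 served as markers of HK2. They were set as markers for this same comparison, so their higher level in HK2 is a description and no independent check. KRT19, the smallest acidic keratin of simple epithelia, stood at 178, 184, 165 and 175 FPKM in HK2, at 62.7, 62.6, 57.9 and 52.6 in A704 and at 1.57, 1.7, 1.34 and 1.06 in CAKI-1. Its HK2 values lay close together and above all others, A704 was intermediate, and CAKI-1 was near 1 FPKM. The log2 difference was 1.56 ± 0.07 (SE) from A704 (limma adjusted p = 8.2e-11) and 6.2 ± 0.07 from CAKI-1 (adjusted p = 8.3e-16). FN1, the matrix glycoprotein fibronectin, stood at 3244, 3006, 3709 and 3048 FPKM in HK2, at 13.5, 13.2, 16.2 and 12 in A704 and at 1162, 1020.2, 838 and 809.7 in CAKI-1. HK2 and CAKI-1 were both high and A704 was low, with no overlap between lines, and the differences were 7.79 from A704 and 1.77 from CAKI-1. WWTR1 stood at 144, 153, 228 and 171 FPKM in HK2, at 76.3, 67.8, 78.5 and 82.6 in A704 and at 60.4, 57, 88.6 and 79.1 in CAKI-1. Its difference was 1.16 ± 0.09 (SE) from A704 (limma adjusted p = 4.3e-08) and 1.28 ± 0.09 from CAKI-1 (adjusted p = 2.1e-08), close to the threshold, and in the control libraries alone it was 0.91 from A704. So all 3 markers were highest in HK2, and each was also above 50 FPKM in at least 1 of the other lines.

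The siRNA targets were checked in every library. PTPN14 stood at 51.8, 43.9, 14.9 and 19.5 FPKM in HK2, at 19.1, 20.1, 4.09 and 7.14 in A704 and at 18.5, 21, 4.66 and 5.78 in CAKI-1. In every line the PTPN14-1 and PTPN14-2 libraries were the lowest, and the HK2 level exceeded those of both other lines at each siRNA. Its difference was 1.36 ± 0.09 (SE) from A704 (limma adjusted p = 1e-08) and 1.39 ± 0.09 from CAKI-1 (adjusted p = 1.1e-08). LATS1 stood at 7.67, 2.14, 11.2 and 8.34 FPKM in HK2, at 4.85, 1.49, 4.94 and 5.07 in A704 and at 4.0, 0.9, 5.2 and 4.55 in CAKI-1, lowest in the LATS siRNA library of every line. LATS2 stood at 8.17, 8.02, 12.6 and 8.27 FPKM in HK2, at 11.9, 13.1, 14.9 and 12.4 in A704 and at 7.21, 8.82, 10.9 and 7.94 in CAKI-1, with the LATS library next to the control in HK2 and above it in the other lines. A lower level in the LATS library of all 3 lines was seen for LATS1 and not for LATS2. LATS1 was not called, with differences of 0.64 from A704 and 0.81 from CAKI-1, nor was LATS2 with -0.47 from A704 and 0.07 from CAKI-1 or YAP1 with -0.39 from A704 and 0.4 from CAKI-1. YAP1 ran from 22.6 to 28 FPKM in HK2, 31.6 to 36.1 in A704 and 17.6 to 21.3 in CAKI-1, so HK2 lay between the other lines.

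**Figure D1:**
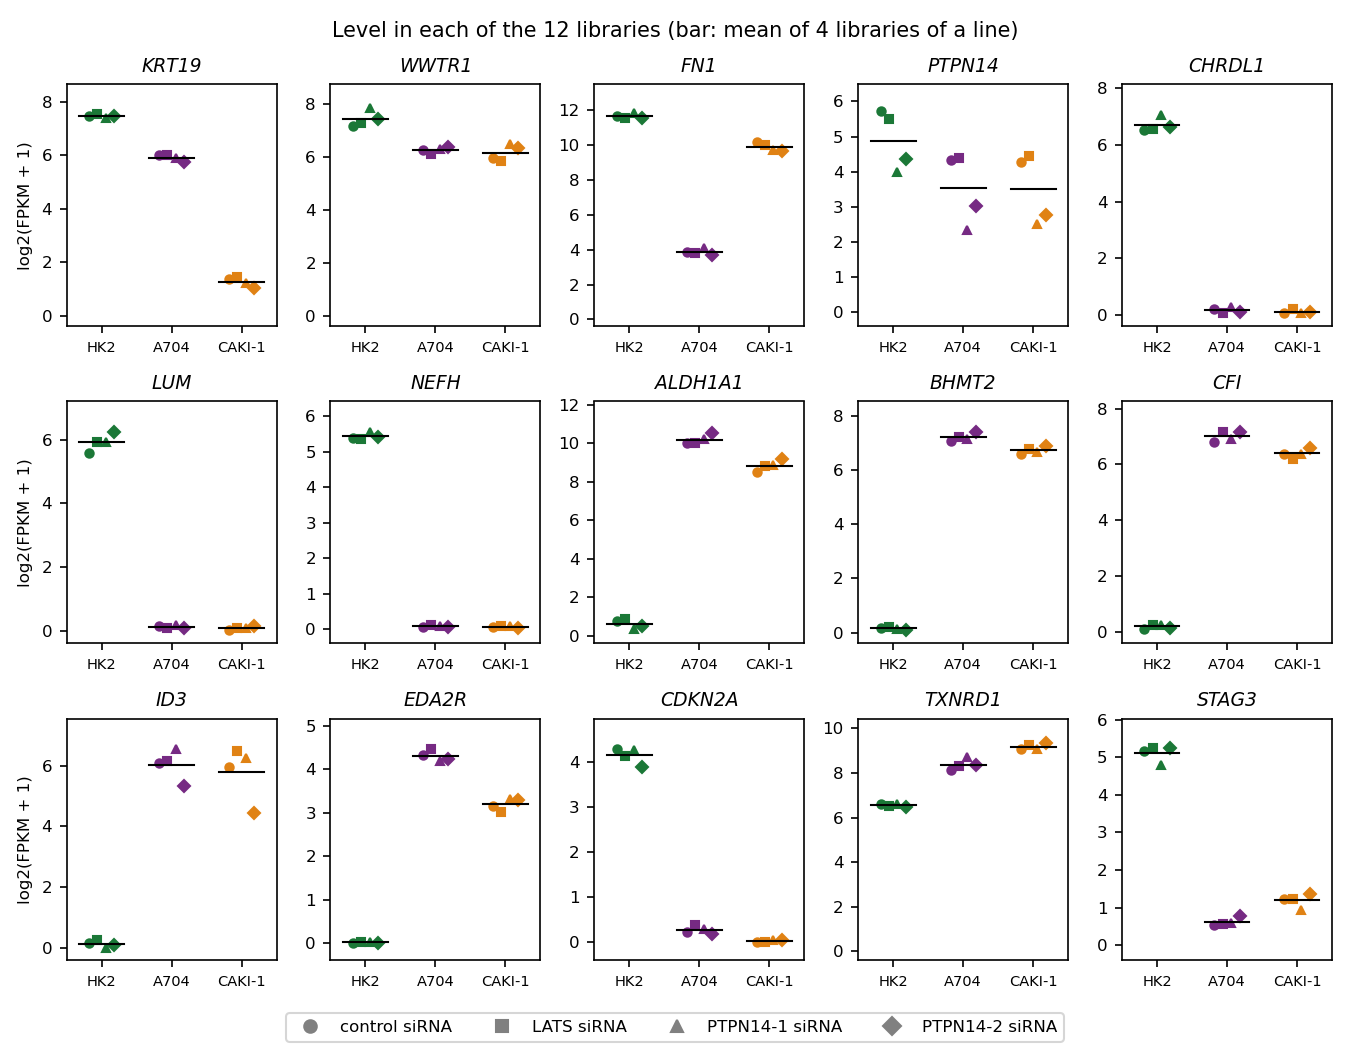
Level of 15 genes as log2(FPKM + 1) in each of the 12 libraries, by line (colour) and siRNA (symbol), with the mean of each line's 4 libraries as a bar. KRT19, FN1 and WWTR1 were highest in HK2, CHRDL1, LUM, NEFH, CDKN2A and STAG3 were low in both cancer lines, and ALDH1A1, BHMT2, CFI, ID3 and EDA2R were near 0 in HK2.

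Against A704 alone, 1979 genes (16.1%) were higher in HK2 and 2023 (16.5%) lower. Against CAKI-1, 1556 genes (12.7%) were higher and 1615 (13.2%) lower. In both comparisons and in the same direction, 847 genes (6.9%) were higher and 755 (6.15%) lower; the comparisons share the 4 HK2 libraries and are not independent. All 847 higher genes and 753 of the 755 lower genes kept their sign in all 8 matched pairs of an HK2 library with the same siRNA's library of another line. In 630 (74.4%) and 524 (69.4%) of them, all 8 pairs also differed by more than 1. The genes were called on the means of these same pairs, so such counts describe the called genes and are no independent check. The smaller of a gene's 2 differences had a median size of 1.46 for the higher and 1.37 for the lower genes. It reached 2 in 210 higher and 148 lower genes, and 4 in 24 and 20.

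Many of these genes were near silent on one side. Of the higher genes, 282 were below 1 FPKM in all 8 libraries of the other lines, and 241 of the lower genes were below 1 FPKM in all 4 HK2 libraries. HK2 values ranged over the siRNAs by more than 1 in log2(FPKM + 1) in 29 of the 847 higher genes and 10 of the 514 lower genes that reached 1 FPKM in an HK2 library. The other 241 lower genes cannot range that far on this scale. At the threshold itself, NASP (differences of 1.00 and 1.36) and ORC3 (1.00 and 1.36) were just inside the higher set and C19orf48 (1.00 and 1.71) and CTPS1 (1.83 and 1.00), whose smaller differences only round to 1.00, just outside. MID1 and PGBD4 were just inside the lower set and TRIQK and GUCY1A3 just outside. All values of the genes named by rule are from limma with p-values adjusted over all 12276 genes; 106 of the 109 genes so named were called, with standard errors of 0.06 to 0.36 and a largest adjusted p of 0.00026. Some other list members are named as examples or as textbook members that were not called, and these were chosen after their values were seen. The lists themselves were chosen with earlier results of these data known, so the shares called in them are descriptions and no independent check.

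**Figure D2:**
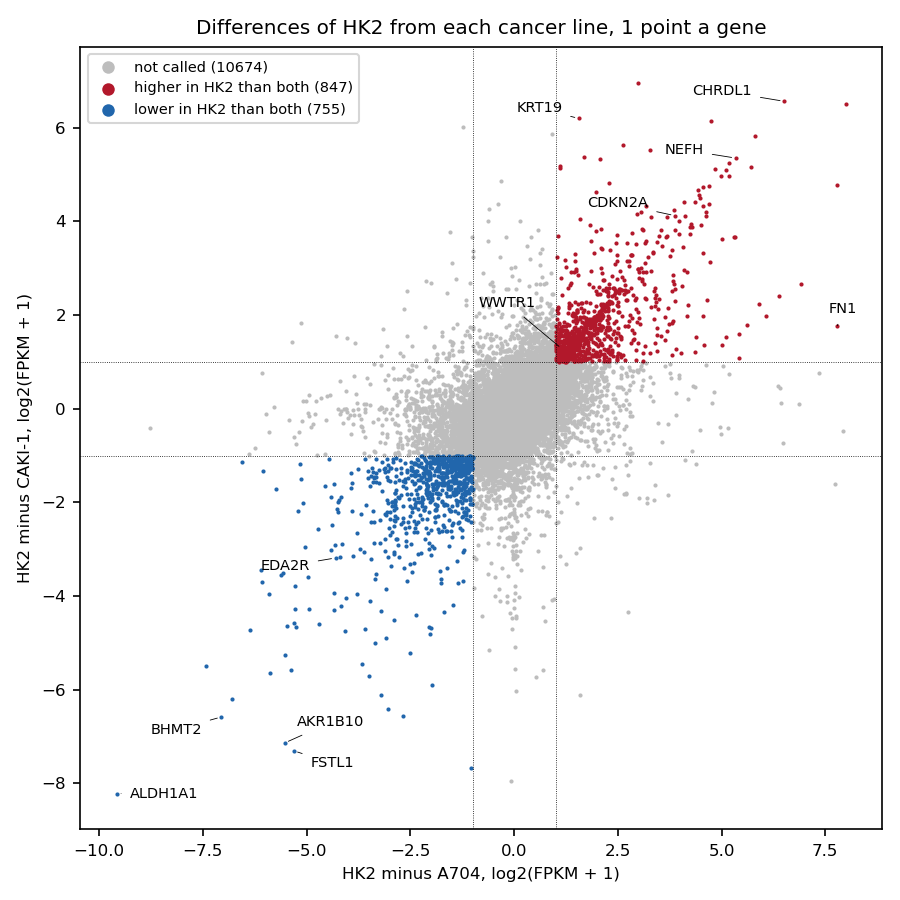
Difference of HK2 from A704 (horizontal) and from CAKI-1 (vertical) in log2(FPKM + 1), 1 point for each of 12276 genes, with dotted lines at a difference of 1 in each direction. The 847 genes called higher in both are red, with CHRDL1 at 6.51 and 6.56, and the 755 called lower are blue and reach -9.57 and -8.22 at ALDH1A1.

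The genes were ranked by the smaller of their 2 differences, and the leading 12 in each direction are drawn on here. Among the higher ones, CHRDL1 (chromosome X, 110673856 to 110795819, GRCh38), a secreted antagonist of bone morphogenetic proteins (BMPs), stood at 90.9, 93.3, 131 and 96.8 FPKM in HK2 and at no more than 0.21 FPKM in any other library. Every HK2 library was far above all libraries of the other lines, and the differences were 6.51 ± 0.09 (SE) from A704 (limma adjusted p = 4.4e-15) and 6.56 ± 0.09 from CAKI-1 (adjusted p = 6.1e-15). LUM (chromosome 12, 91102629 to 91111831), the collagen-binding proteoglycan lumican, stood at 46.6, 60.5, 59.9 and 74.4 FPKM in HK2 and at 0.05 to 0.13 in A704 and 0.01 to 0.11 in CAKI-1. Its neighbour DCN (decorin) had the same pattern at a lower level, with 6.93, 8.2, 5.67 and 7.61 FPKM in HK2 and at most 0.03 elsewhere.

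Among the leading 12 were also genes best known from neurons and muscle. NEFH (chromosome 22, 29480230 to 29491390), the heavy neurofilament subunit, stood at 41.1, 39.8, 45.9 and 41.4 FPKM in HK2, at 0.04, 0.09, 0.07 and 0.04 in A704 and at 0.05, 0.06, 0.07 and 0.03 in CAKI-1. INA, the neurofilament protein alpha-internexin, stood at 37.5, 33.3, 42.5 and 36.8 FPKM in HK2 and at most 0.26 elsewhere. SLN, sarcolipin, a small inhibitor of the muscle calcium pump, stood at 39.7, 43.8, 23.7 and 48.1 FPKM in HK2, lowest with PTPN14-1, and at most 0.24 elsewhere. In these 3 genes every HK2 library stood above 20 FPKM and both cancer lines were near 0. CKB, brain-type creatine kinase, stood at 106, 88, 77.8 and 87.6 FPKM against 0.54 to 0.83 in A704 and 1.2 to 2.03 in CAKI-1. G0S2, an inhibitor of fat cell lipase, stood at 391, 242, 329.7 and 219 FPKM in HK2, with A704 at 0.12 to 0.65 and CAKI-1 at 5.95 to 15.2. Others among the leading 12 were CTHRC1, a secreted collagen-modulating protein (5.1 from A704 and 5.09 from CAKI-1), GPR143, the ocular albinism receptor (4.83 from A704 and 5.11 from CAKI-1), LRRN4 (4.73 from A704 and 6.14 from CAKI-1) and DMKN, the skin protein dermokine (4.69 from A704 and 4.76 from CAKI-1).

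The leading 12 lower genes held metabolic enzymes, 2 complement proteases and several regulators described further on. ALDH1A1 (chromosome 9, 72900662 to 73080442), a retinaldehyde dehydrogenase, stood at 0.72, 0.82, 0.28 and 0.43 FPKM in HK2, at 1032, 1038, 1186 and 1511 in A704 and at 365, 449, 465 and 581 in CAKI-1. It was below 1 FPKM in every HK2 library and at 365 or more in every other, and the differences were -9.57 ± 0.14 (SE) from A704 (limma adjusted p = 2.7e-14) and -8.22 ± 0.14 from CAKI-1 (adjusted p = 1.2e-13). BHMT2 (chromosome 5, 79069717 to 79089466), a methyltransferase that makes methionine, stood at 0.13, 0.16, 0.11 and 0.07 FPKM in HK2, at 134, 149, 142 and 168 in A704 and at 96.7, 109, 101 and 118 in CAKI-1. UGT1A6, which conjugates drugs with glucuronic acid, stood at 0.07, 0.1, 0.04 and 0 FPKM in HK2, 149 to 209 in A704 and 42 to 55.8 in CAKI-1; it shares exons with other UGT1A genes, so its assignment is uncertain. DHRS3, which reduces retinaldehyde, ran at 0.14 to 0.61 FPKM in HK2, 28.4 to 39.9 in A704 and 25.3 to 45 in CAKI-1. CFI (chromosome 4, 109740694 to 109802179), the complement factor I protease, stood at 0.09, 0.21, 0.2 and 0.12 FPKM in HK2 and between 73.1 and 141 in the other 8 libraries. ADAM9, a membrane metalloprotease, was not silent in HK2 but low, at 3.6, 4.05, 3.89 and 4.22 FPKM, against 174 to 277 in A704 and 107 to 146 in CAKI-1. C15orf48, whose product sits in the mitochondrial respiratory chain, was at 0 to 0.34 FPKM in HK2, 31.1 to 82.7 in A704 and 47.2 to 56.5 in CAKI-1.

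**Figure D3:**
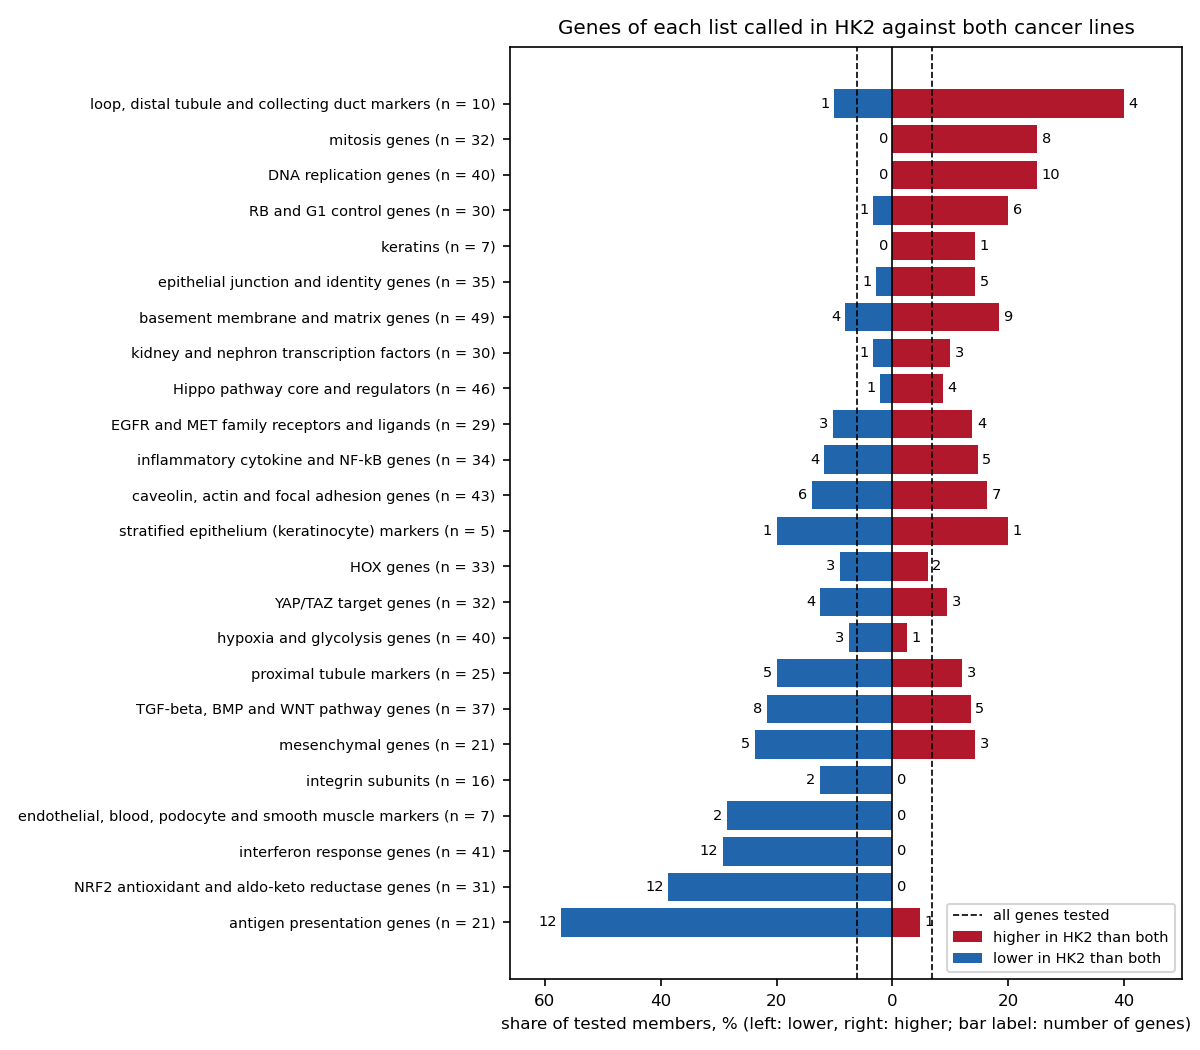
Share of the tested members of each of 24 gene lists called lower (left, blue) or higher (right, red) in HK2 than in both cancer lines, with the number of genes at each bar; dashed lines mark the 6.15% and 6.9% found over all genes tested. Antigen presentation, NRF2 and interferon genes lean to the left, and DNA replication, mitosis and RB genes to the right.

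Kidney and epithelial identity genes gave a mixed picture. The label epithelial was met by the simple keratins: KRT8 ran at 137 to 149 FPKM in HK2, 367 to 389.7 in A704 and 186 to 258 in CAKI-1, and KRT18 at 71.3 to 107 FPKM in HK2, 258 to 321 in A704 and 73 to 101 in CAKI-1, neither of them called. E-cadherin (CDH1) was near absent from HK2, at 0.04, 0.04, 0.04 and 0.07 FPKM, and also low in CAKI-1 (0.06 to 0.17), while A704 stood at 16 to 21.4. Of 35 tested epithelial junction genes, 5 were higher in HK2 than in both lines (14.3%, against 6.9% over all genes) and 1 lower (2.86%, against 6.15%; medians -0.73 from A704 and 0.48 from CAKI-1). EPCAM, an epithelial adhesion molecule, stood at 24.7, 28.9, 27.7 and 33 FPKM in HK2 and at most 0.51 in all other libraries. CLDN1, a tight junction claudin, stood at 515, 484, 674 and 482 FPKM in HK2, at 53.6, 57.7, 94.8 and 50.03 in A704 and at 84.6, 66, 108 and 66.9 in CAKI-1. LAD1, a basement membrane anchoring protein, ran at 16.5 to 27.6 FPKM in HK2, 0.02 to 0.09 in A704 and 0 to 0.08 in CAKI-1, and SPINT1, a membrane protease inhibitor, at 5.73 to 8.02 FPKM in HK2, 0.57 to 0.77 in A704 and 0.64 to 0.87 in CAKI-1. The list's median lay lower than in A704 and higher than in CAKI-1, whereas its summed level was highest in HK2. That sum was 825.3 to 992.4 FPKM against 595.0 to 679.2 in A704 and 289.3 to 365.1 in CAKI-1. CLDN1 made up the largest part of the HK2 sum.

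Proximal tubule markers were checked because HK2 is known to come from that segment; the labels say kidney and epithelial only. The receptors and channels that define the mature segment were near 0 in HK2: LRP2 (megalin) and SLC22A6 (an organic anion transporter) were listed at 0 in all 4 HK2 libraries, AQP1 (the water channel) reached 0.02 FPKM and SLC34A1 (the phosphate transporter) 0.12. The cancer lines were low too: SLC22A6 was listed at 0 in every library, and LRP2 ran at 0.66 to 1.83 in A704 and was listed at 0 in CAKI-1. AQP1 ran at 0.42 to 0.49 in A704 and 0.01 to 0.04 in CAKI-1, and SLC34A1 at 0.3 to 0.46 and 0.03 to 0.07. Of 47 proximal tubule markers, 25 could be tested, with 3 higher (12%) and 5 lower (20%), against 6.9% and 6.15% over all genes. The medians were -1.70 from A704 and 0.61 from CAKI-1. The higher ones were the peptidase ENPEP, at 49.8 to 78.8 FPKM in HK2, 15.2 to 21.5 in A704 and 0.41 to 0.55 in CAKI-1, the cadherin CDH6, at 15.6 to 29.97 FPKM in HK2, 3.18 to 4.65 in A704 and 4.84 to 11.5 in CAKI-1, and MIOX, which opens the inositol ring, at 11.9 to 15.9 FPKM in HK2, 0.57 to 0.93 in A704 and 0 to 0.05 in CAKI-1. Lower were DAB2, an endocytic adaptor of megalin (4.08 to 6.11 FPKM in HK2, 48.7 to 59.5 in A704 and 25 to 32 in CAKI-1), the sodium-proton exchanger SLC9A3 (0.14 to 0.36 FPKM in HK2, 4.21 to 5.0 in A704 and 3.79 to 5.31 in CAKI-1), carbonic anhydrase CA2 (-2.87 from A704 and -1.94 from CAKI-1), SLC4A4 and SLC47A1. Tubule genes thus differed in both directions.

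Of 42 markers of later nephron segments, 40 were in the table and most were too low to test. Only 10 could be tested, of which 4 were higher (40%) and 1 lower (10%), against 6.9% and 6.15% over all genes. SCNN1A, the alpha subunit of the epithelial sodium channel, stood at 31.8, 38.5, 32 and 43.9 FPKM in HK2, at 0.23, 0.1, 0.13 and 0.17 in A704 and at 1.78, 2.78, 1.7 and 1.95 in CAKI-1. ST6GAL1, a sialyltransferase, ran at 9.57 to 10.5 FPKM in HK2, 0.18 to 0.45 in A704 and 0.36 to 0.57 in CAKI-1. ATP6V0D2, a proton pump subunit, ran at 1.23 to 3.42 FPKM in HK2, 0.07 to 0.12 in A704 and 0 to 0.04 in CAKI-1; the fourth was HSD11B2. CDH16, the kidney-specific cadherin, was lower, at 0.42 to 1.54 FPKM in HK2, 56.4 to 80.2 in A704 and 3.16 to 5.74 in CAKI-1. Of 30 kidney transcription factors, 3 were higher and 1 lower, close to the shares over all genes. SALL1, a factor of nephron progenitors, stood at 66.8, 60.4, 44.8 and 72.8 FPKM in HK2, at 9.43, 10.3, 7.44 and 9.01 in A704 and at 0.24, 0.25, 0.22 and 0.26 in CAKI-1, and its order HK2, A704, CAKI-1 held at every siRNA. SOX11 (1.43 to 1.74 FPKM in HK2, 0 to 0.01 in A704 and 0 to 0.01 in CAKI-1), a developmental factor, was higher at a low level, and KLF4 (-1.43 from A704 and -1.22 from CAKI-1) was lower. PAX8, the renal lineage factor, was highest in HK2 but was not called: it ran at 70.6 to 85.3 FPKM in HK2, 19.4 to 25.2 in A704 and 37.1 to 54.5 in CAKI-1. PAX2 was not called either: it was listed at 0 in every HK2 library and ran at 9.81 to 14.3 in A704.

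Other cell types were checked because the growth protocol names a keratinocyte medium. Of 45 markers of stratified epithelium, 40 were too low to test and none of these exceeded 1.1 FPKM in any library; KRT5 was listed at 0 in all HK2 libraries and TP63 reached 0.05 FPKM. The 2 called were S100A2, higher in HK2 (55.1 to 62.9 FPKM in HK2, 10.5 to 13.6 in A704 and 13.8 to 18.9 in CAKI-1), and the protease inhibitor SLPI, lower (0 to 0.1 FPKM in HK2, 0.62 to 2.17 in A704 and 1.8 to 4.98 in CAKI-1). Their list summed to 63.3 to 73.9 FPKM in HK2, 14.9 to 21.1 in A704 and 26.8 to 32.9 in CAKI-1, and S100A2 alone made up most of the HK2 sum. Of 36 endothelial, blood, podocyte and smooth muscle markers, 7 could be tested. Of these, RGS5 and PTPRO were lower in HK2 (28.6%, against 6.15% over all genes). In HK2, RGS5 was at most 1.74 FPKM and PTPRO at most 0.03. The calls for SLPI and RGS5 lay close to the threshold, and leaving out 1 library could end them. Without the HK2 control, the A704 LATS or the A704 PTPN14-1 library, SLPI differed by -1.00, -0.96 and -0.92 from A704, each short of the threshold. Without the HK2 or the CAKI-1 PTPN14-1 library, RGS5 differed by -0.91 and -0.84 from CAKI-1. In bulk RNA, fewer cells expressing a gene and less RNA per cell cannot be told apart.

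Matrix genes were called in both directions. Of 49 tested, 9 were higher (18.4%, against 6.9% over all genes) and 4 lower (8.16%). LAMB3, a beta chain of laminin, was higher, at 68.9 to 100.14 FPKM in HK2, 8.54 to 11.8 in A704 and 5.06 to 7.28 in CAKI-1; the LAMA3 chain was not called, at -0.91 from A704 and -0.79 from CAKI-1. The plasminogen activator PLAT, which starts clot and matrix breakdown, stood at 75.7, 78.6, 79.3 and 105 FPKM in HK2, at 1.38, 1.63, 0.9 and 0.66 in A704 and at 6.79, 6.75, 3.87 and 5.65 in CAKI-1. TNC, tenascin C, ran at 84.6 to 104 FPKM in HK2, 0.08 to 0.2 in A704 and 14.6 to 19.4 in CAKI-1. The collagenase MMP1 ran at 11.5 to 36.6 FPKM in HK2, 1.13 to 1.61 in A704 and 0.03 to 0.09 in CAKI-1. Also higher were NID2, LOXL1, MMP9 and FBLN1. Lower were LAMA4, a laminin chain of vessels and mesenchyme, at 0, 0.04, 0.02 and 0.02 FPKM in HK2, at 39.97, 52.3, 53.3 and 51.1 in A704 and at 14.2, 9.3, 10.8 and 10.3 in CAKI-1; THBS1, thrombospondin 1, at 2.85 to 11.2 FPKM in HK2, 42.7 to 76.9 in A704 and 53 to 104 in CAKI-1; VCAN and COL4A5. Of these laminin chains, LAMB3 was thus high in HK2 and LAMA4 was at or near 0.

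Among 16 integrin subunits 0 were higher and 2 lower by limma, with 5 and 5 at an unadjusted p under 0.05 in both comparisons. These shares were near those over all genes, of which 29.3% were higher and 26.3% lower by that looser rule. ITGB4, a laminin-binding subunit, ran at 0.95 to 1.52 FPKM in HK2, 16.1 to 22.9 in A704 and 6.73 to 13.5 in CAKI-1. ITGB6, which activates TGF-beta, ran at 0.13 to 0.46 FPKM in HK2, 10.1 to 16.2 in A704 and 13.1 to 30.2 in CAKI-1. Mesenchymal genes split, with 3 higher (FN1, LUM, DCN) and 5 lower of 21 tested (14.3% and 23.8%, against 6.9% and 6.15% over all genes). TGFBI, a matrix protein induced by TGF-beta, ran at 65.5 to 83.8 FPKM in HK2, 1101 to 1766 in A704 and 275 to 312 in CAKI-1. ACTA2, smooth muscle actin, ran at 0.07 to 0.37 FPKM in HK2, 4.52 to 10.9 in A704 and 3.96 to 7.74 in CAKI-1. VIM, the intermediate filament vimentin, stood at 377, 377, 441 and 318 FPKM in HK2, at 1590.0, 1503, 1538 and 1532 in A704 and at 995, 991, 1139 and 788 in CAKI-1; it was lower in HK2 in all 8 matched pairs, at -2.03 from A704 and -1.36 from CAKI-1, but still abundant. S100A4 and TAGLN were the other lower ones.

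Caveolae and actin genes also split, with 7 higher and 6 lower of 43 (16.3% and 13.95%, against 6.9% and 6.15% over all genes). CAV1 and CAV2, the caveolar coat proteins, were both lower: CAV1 ran at 35 to 73.3 FPKM in HK2, 134 to 209 in A704 and 232 to 387 in CAKI-1, and CAV2 ran at 19.7 to 41 FPKM in HK2, 96.8 to 131 in A704 and 133 to 199 in CAKI-1. TPM2, a tropomyosin, ran at 0.04 to 0.1 FPKM in HK2, 2.34 to 3.7 in A704 and 51.3 to 76.8 in CAKI-1. MYH10, non-muscle myosin IIB, was higher, at 40.3, 43.2, 35.6 and 46 FPKM in HK2, at 3.3, 3.02, 1.96 and 3.61 in A704 and at 8.23, 8.06, 5.43 and 9.4 in CAKI-1, and so were FLNC, VCL, ACTN1, CNN2, VASP and MYH9.

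Cell cycle genes were higher in HK2 or not called, with 1 exception. Of 40 DNA replication genes, all tested, 10 were higher (25.0%) and 0 lower, against 6.9% and 6.15% over all genes. Their medians were 0.72 from A704 and 1.34 from CAKI-1. At an unadjusted limma p under 0.05 in both comparisons, with no minimum difference, 31 were higher and 0 lower. Over all genes this looser rule took 29.3% as higher and 26.3% as lower. Of 32 mitosis genes, 8 were higher (25.0%) and 0 lower (medians 0.64 and 0.72), and at an unadjusted p under 0.05 in both, 18 were higher and 2 lower. Of 30 RB and G1 control genes, 6 were higher (20%) and 1 lower. The differences were modest: UHRF1, which copies DNA methylation, stood at 30.3, 27.2, 26.1 and 28.5 FPKM in HK2, at 11, 9.17, 8.31 and 9.23 in A704 and at 6.46, 5.54, 6.4 and 6.25 in CAKI-1. RRM2, the ribonucleotide reductase subunit that makes deoxynucleotides, stood at 149, 137, 110.3 and 162 FPKM in HK2, at 45, 41.8, 39.8 and 46.3 in A704 and at 36.7, 30.3, 35.7 and 36.8 in CAKI-1. HK2 exceeded every library of both other lines for these genes, with fitted differences of 1.48 to 2.02. The checkpoint mediator CLSPN differed by 1.84 from A704 and 1.88 from CAKI-1 and POLE2, a polymerase epsilon subunit, by 1.71 from A704 and 1.79 from CAKI-1. Mitotic genes followed: the spindle proteins DLGAP5 (1.76 from A704 and 1.45 from CAKI-1) and TPX2 (1.35 from A704 and 1.41 from CAKI-1), the anaphase activator CDC20 (1.5 from A704 and 1.32 from CAKI-1) and the kinase AURKB (1.47 from A704 and 2.28 from CAKI-1). The proliferation marker MKI67 ran at 72.7 to 82.3 FPKM in HK2, 31.2 to 39.9 in A704 and 22.5 to 28.7 in CAKI-1.

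Regulators of G1 were called in both directions. CDKN2A (chromosome 9, 21967753 to 21995301), which encodes the inhibitor p16 and the protein ARF, stood at 18.7, 16.5, 18.4 and 13.9 FPKM in HK2, at 0.17, 0.31, 0.22 and 0.14 in A704 and at 0, 0.01, 0.03 and 0.04 in CAKI-1. The gene was transcribed in HK2 and near silent in both cancer lines, with differences of 3.88 ± 0.09 (SE) from A704 (limma adjusted p = 1.5e-13) and 4.12 ± 0.09 from CAKI-1 (adjusted p = 1.1e-13); FPKM per gene does not separate p16 from ARF. Its neighbour CDKN2B, the inhibitor p15, stood at 2.67, 3.77, 4.09 and 4.35 FPKM in HK2, 0.62 to 0.98 in A704 and was listed at 0 in all CAKI-1 libraries. CDKN2C, the inhibitor p18, was the exception and was lower, at 2.09 to 5.02 FPKM in HK2, 15.1 to 26.9 in A704 and 8.32 to 12 in CAKI-1. RBL1, the RB-related protein p107, ran at 10.5 to 16.6 FPKM in HK2, 2.34 to 3.16 in A704 and 3.32 to 4.65 in CAKI-1; CDC25A, the phosphatase that starts S phase, at 16.6 to 25.2 FPKM in HK2, 3.7 to 4.98 in A704 and 6.79 to 10.2 in CAKI-1; and the factor E2F3 at 18.5 to 21.6 FPKM in HK2, 6.99 to 8.65 in A704 and 6.11 to 7.26 in CAKI-1. CCNE2, cyclin E2, was also higher (1.24 from A704 and 1.03 from CAKI-1), whereas RB1 itself ran at 20.3 to 22.9 FPKM in HK2, 27.1 to 31.9 in A704 and 22.6 to 28.1 in CAKI-1 and was not called. RB holds back E2F factors, which switch on replication genes from sites near their starts.

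E2F-type words were looked for in the 250 bases upstream of RefSeq gene starts (GRCh38.p14), on both strands, as TTTCCCGC, TTTCGCGC, TTTGCCGC or TTTGGCGC. Of the 40 replication genes, 35 (87.5%) had a RefSeq promoter, and 14 of these (40.0%) held such a word; of 27 mitosis genes with a promoter, 3 (11.1%) did, against 928 of 27305 genes (3.4%) in the whole promoter table. Of the genes tested that had a promoter, 5.78% held one, as did 5.34% of those called higher and 5.42% of those called lower. Promoters were found for fewer than 80% of these 3 sets (79.6%, 77.3% and 75.8%), so the check over them is void. The 60-base windows below are examples from cell cycle genes higher in HK2, picked because they held such a word. They do not show how common the words are among the higher genes. RRM2, CLSPN and POLE2 gave no window, for lack of a word or of a promoter. A second window of UHRF1, at another of its starts, is not shown. Every such word in a window is in capitals, on either strand, and each window is written 5′ to 3′ on the gene's strand.
CDC25A, chr3:48188427-48188486, minus strand: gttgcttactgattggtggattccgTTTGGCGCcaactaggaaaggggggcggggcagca
RBL1, chr20:37095998-37096057, minus strand: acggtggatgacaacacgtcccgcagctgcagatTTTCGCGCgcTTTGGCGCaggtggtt
E2F3, chr6:20401801-20401860, plus strand: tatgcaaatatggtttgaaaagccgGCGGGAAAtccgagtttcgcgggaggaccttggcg
UHRF1, chr19:4909441-4909500, plus strand: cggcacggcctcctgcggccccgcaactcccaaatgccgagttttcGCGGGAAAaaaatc
POLA1, chrX:24693756-24693815, plus strand: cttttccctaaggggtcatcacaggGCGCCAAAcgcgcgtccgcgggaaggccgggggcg
RBL1 holds 2 such words and the other windows 1. The word nearest the start ended 37 bases before it in CDC25A, 9 in RBL1, 46 in E2F3, 7 in UHRF1 and 130 in POLA1. A match is a description of the sequence and does not show that a factor binds there.

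Other genes, outside the groups above, also separated HK2 from both cancer lines. EDA2R (chromosome X, 66595637 to 66639298), an ectodysplasin receptor, stood at 0, 0.02, 0.02 and 0 FPKM in HK2, at 19.3, 21.3, 17.4 and 17.9 in A704 and at 7.99, 7.08, 8.93 and 8.88 in CAKI-1; it was at or next to 0 in all HK2 libraries. SPATA18, which acts in mitochondrial quality control, ran at 0 to 0.05 FPKM in HK2, 4.34 to 7.28 in A704 and 3.83 to 4.59 in CAKI-1, while CMBL, a hydrolase, ran at 6.8 to 8.43 FPKM in HK2, 43.7 to 52.3 in A704 and 41.6 to 51.3 in CAKI-1. RRM2B, a ribonucleotide reductase subunit used outside S phase, stood at 3.91, 2.36, 4.12 and 4.55 FPKM in HK2, at 24.9, 20.2, 23.3 and 28 in A704 and at 28.3, 18.3, 34.2 and 33.8 in CAKI-1, the opposite direction from its S-phase relative RRM2. PMAIP1 (NOXA), a promoter of apoptosis, was higher, at 43.4 to 64.4 FPKM in HK2, 13.7 to 22.7 in A704 and 9.5 to 15.3 in CAKI-1. CDKN1A, the cell cycle inhibitor p21, stood at 22.3, 19.9, 28.6 and 23.5 FPKM in HK2, at 92.3, 105, 135 and 118 in A704 and at 31.9, 36.7, 40.3 and 35.3 in CAKI-1, a difference of -2.2 from A704 and -0.6 from CAKI-1, and was not called.

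**Figure D4:**
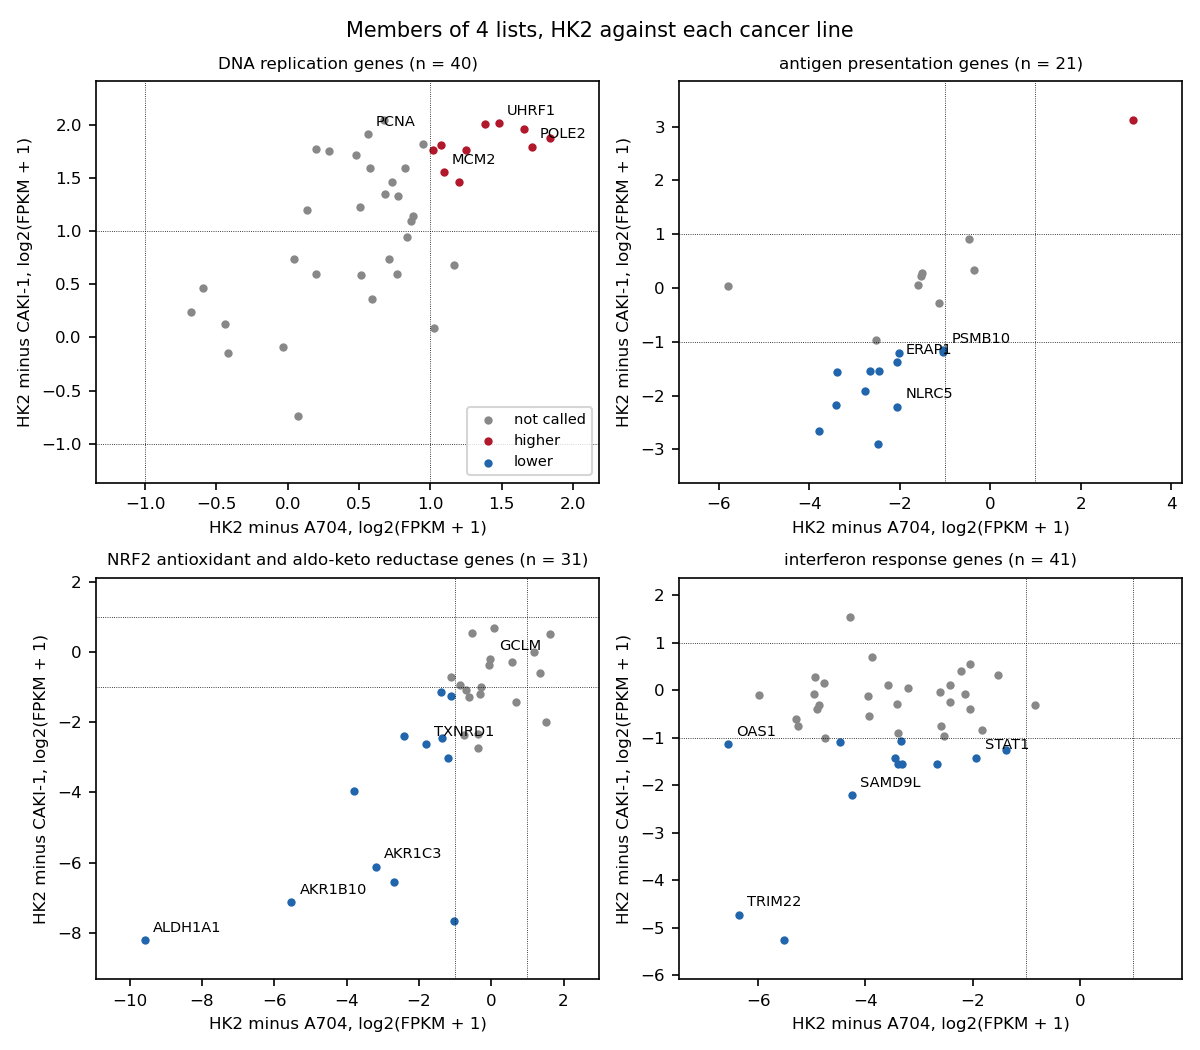
Members of 4 lists by their difference of HK2 from A704 (horizontal) and from CAKI-1 (vertical) in log2(FPKM + 1), with genes called higher in red, lower in blue and others in grey, and dotted lines at 1 in each direction. In it, 10 of 40 replication genes are red, 12 of 21 antigen presentation genes blue, 12 of 31 NRF2 and aldo-keto reductase genes blue, and 12 of 41 interferon genes blue.

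Antioxidant and aldo-keto reductase genes, many of them targets of the oxidant sensor NRF2, were lower or not called. Of 31 tested, 12 were lower (38.7%, against 6.15% over all genes) and 0 higher, with medians of -0.69 and -1.28. At an unadjusted limma p under 0.05 in both comparisons, 21 were lower and 1 higher, where all genes gave 26.3% lower and 29.3% higher. AKR1B10, which reduces aldehydes, stood at 0.39, 0.73, 1.04 and 0.33 FPKM in HK2, at 48.4, 69.6, 105 and 79.7 in A704 and at 249, 234, 215 and 200.4 in CAKI-1. AKR1C3 stood at 6.65, 7.09, 7.48 and 4.13 FPKM in HK2, at 61.2, 58.4, 72.2 and 69.8 in A704 and at 596, 525, 409 and 482 in CAKI-1, lowest in HK2 and highest in CAKI-1; AKR1C1, AKR1C2 and AKR1C3 are near-identical in sequence, so reads may be split among them. TXNRD1, thioredoxin reductase, stood at 97.3, 89.6, 97.8 and 88.5 FPKM in HK2, at 281, 312, 415 and 325 in A704 and at 539, 598, 537 and 649 in CAKI-1, and SLC7A11, the cystine transporter that feeds glutathione synthesis, ran at 2.78 to 5.28 FPKM in HK2, 18.8 to 39.6 in A704 and 20.1 to 31.1 in CAKI-1. ABCC3, a conjugate export pump, ran at 2.73 to 5.19 FPKM in HK2, 60.7 to 87 in A704 and 66.5 to 94.3 in CAKI-1. Not every NRF2 gene followed: GCLM, of glutathione synthesis, differed by -0.02 from A704 and -0.2 from CAKI-1, and NQO1, at -0.76 from A704 and -2.36 from CAKI-1, passed against CAKI-1 only.

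Interferon response genes were lower or not called. Of 41 tested, 12 were lower in both comparisons (29.3%, against 6.15% over all genes) and 0 higher. The medians were -3.40 from A704 and -0.40 from CAKI-1. At an unadjusted limma p under 0.05, 21 were lower in both and 0 higher, where all genes gave 26.3% lower. TRIM22, an antiviral ubiquitin ligase, stood at 0.05, 0.17, 0.08 and 0.05 FPKM in HK2, at 73.8, 109, 114 and 66.1 in A704 and at 27.1, 24.5, 30.0 and 29.9 in CAKI-1. SAMD9L, an antiviral growth inhibitor, stood at 0.27, 0.39, 0.27 and 0.54 FPKM in HK2, at 18, 33.1, 40.1 and 16 in A704 and at 5.06, 4.46, 6.82 and 5.1 in CAKI-1, its neighbour SAMD9 ran at 1.3 to 1.82 FPKM in HK2, 16.9 to 42.1 in A704 and 4.06 to 7.91 in CAKI-1, and UBE2L6, the ISG15-conjugating enzyme, at 5.61 to 14.3 FPKM in HK2, 90.1 to 149 in A704 and 22.5 to 45.5 in CAKI-1. OAS1, the RNA sensor, stood at 0.88, 0.75, 0.53 and 0.58 FPKM in HK2, at 113, 203, 236 and 114 in A704 and at 2.66, 2.91, 2.5 and 2.63 in CAKI-1. In A704 these genes also moved with the siRNA, and the LATS and PTPN14-1 libraries were the highest for TRIM22, SAMD9L and OAS1. In HK2 they stayed low at every siRNA.

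Of the antigen presentation genes, 12 of 21 tested were lower (57.1%, against 6.15% over all genes) and 1 higher (medians -2.05 and -1.18). Several are class I HLA genes and partners that stand on more than 1 line of the table and are not named. NLRC5, the transactivator of class I genes, stood at 1.44, 1.32, 0.79 and 1.56 FPKM in HK2, at 6.77, 9.26, 11.6 and 6.72 in A704 and at 8.39, 11.3, 9.75 and 8.45 in CAKI-1. ERAP1, which trims peptides for class I molecules, ran at 9.58 to 12.7 FPKM in HK2, 36.8 to 54.6 in A704 and 26.2 to 34.5 in CAKI-1. PSMB10, an immunoproteasome subunit, ran at 12 to 16.1 FPKM in HK2, 25.7 to 40.6 in A704 and 29.1 to 41.6 in CAKI-1. PSMB10 was called narrowly, and without the HK2 or the A704 PTPN14-1 library it differed by -0.93 and -0.83 from A704. A list of complement genes was drawn up after the values were seen, so its count is a description. Of 11 tested, 6 were lower and 0 higher, where all genes gave 6.15% lower. At an unadjusted limma p under 0.05 in both comparisons, 9 were lower and 0 higher, where all genes gave 26.3% lower. C1S, a protease of the classical pathway, stood at 4.93, 6.36, 4.35 and 7.18 FPKM in HK2, at 169.8, 324, 321 and 225 in A704 and at 179, 193, 128 and 167 in CAKI-1. C1R, its partner, ran at 4.03 to 7.08 FPKM in HK2, 168 to 328 in A704 and 74.4 to 102 in CAKI-1. Complement factor C3 was still present in HK2, at 66.5 to 85.6 FPKM in HK2, 102 to 199 in A704 and 213 to 295 in CAKI-1.

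Signalling genes showed opposite moves within a pathway. Of 37 TGF-beta, BMP and WNT genes, 5 were higher and 8 lower (13.5% and 21.6%, against 6.9% and 6.15% over all genes). ID3 (chromosome 1, 23557918 to 23559794), an inhibitor of differentiation induced by BMP, stood at 0.13, 0.22, 0 and 0.08 FPKM in HK2, at 67.4, 69.9, 91.8 and 38.8 in A704 and at 61, 88.4, 74.3 and 20.7 in CAKI-1; it was near 0 in HK2 and lowest with PTPN14-2 in both cancer lines. ID1, its paralogue, ran at 3.56 to 5.45 FPKM in HK2, 26.5 to 37.1 in A704 and 42.3 to 70.3 in CAKI-1. In a list of BMP feedback and target genes drawn up after the values were seen, 5 of 8 were lower (ID1, ID3, SMAD6, SMAD7, SMAD9) and 0 higher. The same counts of 5 and 0 held at an unadjusted limma p under 0.05, where all genes gave 26.3% lower. A further 2 genes of this list were too low to test. Of these, NOG went the other way, at 0.66 to 1.15 FPKM in HK2 and at most 0.16 in the other lines. SMAD6, an inhibitory SMAD, ran at 0.05 to 0.31 FPKM in HK2, 4.53 to 5.56 in A704 and 3.74 to 5.02 in CAKI-1, and the ligand BMP4 at 0.35 to 0.6 FPKM in HK2, 3.1 to 4.11 in A704 and 4.06 to 6.11 in CAKI-1. ID2 was not called, at -0.19 from A704 and -0.19 from CAKI-1. The BMP antagonist CHRDL1 was high in HK2, as given above, and FSTL1, another secreted BMP binder, was low, at 0.09 to 0.23 FPKM in HK2, 37.3 to 53.9 in A704 and 134 to 203 in CAKI-1. Ligands were among the higher genes: WNT5B ran at 12 to 14.6 FPKM in HK2, 0 to 0.05 in A704 and 0.29 to 0.48 in CAKI-1 and TGFB2 at 27.6 to 64.5 FPKM in HK2, 3.33 to 5.4 in A704 and 8.81 to 15.3 in CAKI-1, and WNT5A and RSPO3 were also called. The fifth has a symbol that stands on more than 1 line of the table.

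Both EREG and AREG, ligands of EGFR, were higher in HK2. EREG, epiregulin, stood at 169.74, 136, 119.6 and 192 FPKM in HK2, at 0.31, 0.26, 0.29 and 0.22 in A704 and at 51.1, 15.5, 14.1 and 25.9 in CAKI-1. AREG, amphiregulin, stood at 64.5, 70.3, 29.5 and 85.8 FPKM in HK2, at 19.6, 11.6, 10.5 and 8.17 in A704 and at 15.6, 8.27, 5.58 and 8.64 in CAKI-1; its PTPN14-1 value was the lowest of HK2 but still above every other line's. Receptors went either way: MET was lower (56.5 to 82.6 FPKM in HK2, 201 to 232 in A704 and 184 to 293 in CAKI-1), and EGFR was lower than in A704 but not called against CAKI-1 (-2.02 from A704 and -0.27 from CAKI-1). MERTK, a receptor that clears dying cells, was higher (2.85 from A704 and 1.69 from CAKI-1), and FGF2, a fibroblast growth factor, lower (-1.65 from A704 and -2.61 from CAKI-1). In all, 4 of 29 receptor and ligand genes were higher (13.8%) and 3 lower (10.3%), against 6.9% and 6.15% over all genes.

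Inflammatory genes divided as well, with 5 higher and 4 lower of 34 (14.7% and 11.8%, against 6.9% and 6.15% over all genes). CSF2, the cytokine GM-CSF, stood at 36.7, 45.8, 57.8 and 33.2 FPKM in HK2, at 6.16, 6.87, 9.31 and 2.62 in A704 and at 17.8, 3.32, 5.51 and 3.31 in CAKI-1; the CAKI-1 control library was apart from the other CAKI-1 libraries, and the standard error was 0.36. CCL20, a lymphocyte attractant, ran at 7.01 to 14.4 FPKM in HK2, 0.31 to 1.34 in A704 and 1.14 to 2.54 in CAKI-1, and CXCL8, CXCL5 and IL11 were also higher. CXCL1, a neutrophil attractant, was lower, at 0.05, 0.1, 0.16 and 0.26 FPKM in HK2, at 7.54, 6.6, 11.9 and 7.89 in A704 and at 174, 75.4, 70.2 and 92.6 in CAKI-1, as was the adhesion molecule VCAM1, at 21.2 to 36.8 FPKM in HK2, 216 to 309 in A704 and 229 to 344 in CAKI-1.

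The Hippo list was near the background, with 4 of 46 higher (8.70%) and 1 lower (2.17%). Beside WWTR1 and PTPN14, RASSF5 ran at 5.47 to 6.18 FPKM in HK2, 0.26 to 0.8 in A704 and 0.22 to 0.59 in CAKI-1 and FRMD6, an upstream activator, at 11.7 to 33.4 FPKM in HK2, 4.89 to 9.03 in A704 and 5.62 to 11 in CAKI-1; the polarity gene LLGL2 was lower, at 0.24, 0.17, 0.09 and 0.27 FPKM in HK2, at 7.99, 8.01, 5.82 and 7.52 in A704 and at 8.6, 12.1, 5.43 and 6.82 in CAKI-1. YAP and TAZ target genes were called in both directions, 3 higher and 4 lower of 32 (9.38% and 12.5%, against 6.9% and 6.15% over all genes), with medians of -0.16 and -0.03. CYR61, a secreted matricellular protein, stood at 520.25, 593, 733 and 554 FPKM in HK2, at 107, 89.5, 152 and 120.3 in A704 and at 63.1, 75.2, 129.9 and 74.4 in CAKI-1, highest with PTPN14-1 in every line. CTGF, its relative, differed by 1.78 from A704 and -0.22 from CAKI-1 and was not called. IGFBP3, which binds insulin-like growth factors, was lower, at 16.7, 25.5, 14.1 and 43.9 FPKM in HK2, at 1579.6, 1485, 1315 and 2144 in A704 and at 263, 326, 376 and 276 in CAKI-1, and LIMA1, THBS1 and DKK1 were also lower.

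Hypoxia and glycolysis genes were 1 higher and 3 lower of 40, near or below background, although the medians differed between comparisons (-1.32 from A704, 0.26 from CAKI-1). EPAS1, the hypoxia factor HIF-2 alpha, was higher, at 71.8, 87.4, 43.4 and 92.3 FPKM in HK2, at 28.4, 32.9, 20.8 and 25.8 in A704 and at 37.2, 43.8, 20.9 and 27 in CAKI-1; without the PTPN14-2 libraries of all lines it differed by 0.98 from CAKI-1 and lost its call. ALDOC, a glycolytic aldolase, ran at 0.2 to 0.47 FPKM in HK2, 20.4 to 29.2 in A704 and 10.0 to 13 in CAKI-1, STC2, a stanniocalcin, at 8.36 to 10.5 FPKM in HK2, 48.1 to 63.7 in A704 and 40.9 to 51.6 in CAKI-1, and PGM1, a glycogen enzyme, at 13.7 to 16.8 FPKM in HK2, 54.5 to 68.2 in A704 and 33 to 40.1 in CAKI-1. VHL, the ubiquitin ligase subunit that degrades HIF factors, was listed at 0.04 to 0.14 FPKM in A704, 19.9 to 20.8 in HK2 and 13.1 to 15.3 in CAKI-1, and CA9, a hypoxia target, at 114 to 127, 1.42 to 2.81 and 0.04 to 0.21 in the same order. Of 33 HOX genes, which set position along the body axis, 2 were higher and 3 lower (6.06% and 9.09%), near the 6.9% and 6.15% over all genes. HOXD11 (3.46 to 4.45 FPKM in HK2, 0 to 0.07 in A704 and 0.77 to 1.43 in CAKI-1) and HOXA7 (3.05 to 4.09 FPKM in HK2, 0.16 to 0.4 in A704 and 0.15 to 0.36 in CAKI-1) were higher and HOXC8 (0.3 to 0.53 FPKM in HK2, 3.79 to 4.88 in A704 and 5.43 to 7.29 in CAKI-1) and HOXA3 (2.01 to 2.99 FPKM in HK2, 6.28 to 11 in A704 and 9.07 to 12.9 in CAKI-1) lower, with HOXA4.

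Genes of meiosis and germ cells were noticed among the higher genes, and a list was drawn up after that, so its count is a description. Of 17 listed, 9 could be tested, and 5 were higher and 0 lower, where all genes gave 6.9% higher. The 8 not tested were low in all 3 lines. They reached at most 1.09 FPKM, at SYCP3 in A704, and 1 of them was listed at 0 in every library. At an unadjusted limma p under 0.05 in both comparisons, 6 were higher and 0 lower, where all genes gave 29.3% higher. STAG3, the meiotic cohesin subunit, stood at 35, 36.9, 26.9 and 36.7 FPKM in HK2, at 0.45, 0.48, 0.5 and 0.72 in A704 and at 1.37, 1.33, 0.93 and 1.59 in CAKI-1. MEIOB, which acts in meiotic recombination, stood at 24.6, 24.2, 22.4 and 26.3 FPKM in HK2 and at most 0.20 elsewhere. SYCP2, of the synaptonemal complex, ran at 28.4 to 31.8 FPKM in HK2, 2.5 to 3.47 in A704 and 0.62 to 0.88 in CAKI-1, GPAT2 at 22.2 to 26.5 FPKM in HK2, 0 to 0.05 in A704 and 0.2 to 0.6 in CAKI-1 and the cohesin SMC1B at 1.73 to 6.72 FPKM in HK2, 0.03 to 0.05 in A704 and 0 to 0.03 in CAKI-1. In HK2 the first 4 of these exceeded 20 FPKM at every siRNA, and most values in the cancer lines were below 1. Of 5 tested neural intermediate filament genes, a list also drawn up after the values were seen, NES (nestin), NEFH and INA were higher and 0 lower. NEFL was not called, and was high in A704 (16.5 to 20.6) and at 0.15 to 0.28 in HK2.

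The called genes were spread unevenly over the chromosomes, as placed by GENCODE 29 models on GRCh38; 452 tested entries had no match. On chromosome 14, 72 of 377 genes (19.1%) were higher and 5 (1.33%) lower, and the median difference was 0.80 from A704 and 0.54 from CAKI-1. On chromosome 19, 116 of 835 (13.9%) were higher and 7 (0.84%) lower. Chromosomes 20 (37 of 316, 11.7%), 22 (29 of 281, 10.3%) and 6 (65 of 631, 10.3%) also held more higher genes than the 6.9% over all. In the other direction, chromosome 5 held 79 lower genes of 528 (15.0%) and 13 higher (2.46%), followed by chromosomes 15 (47 of 361, 13.0%), 13 (24 of 202, 11.9%) and 7 (59 of 562, 10.5%). On chromosome 5, 64 of the 79 lower genes started past 100 Mb, among 308 tested there (20.8%), against 15 of 220 up to that point (6.82%). The split point was chosen after the values were seen.

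On chromosome 19, symbols beginning with ZNF or ZFP and a digit, a naming pattern of zinc finger genes, were 46 of 206 higher (22.3%) and 0 lower. At an unadjusted limma p under 0.05 in both comparisons, 165 were higher and 3 lower, where all genes gave 29.3% and 26.3%. The other genes of the chromosome were 70 of 629 higher (11.1%) and 7 lower. Zinc finger symbols on other chromosomes were 14 of 235 higher (5.96%) and 9 lower, near the shares over all genes. Genes described above include CKB, POLE2 and DLGAP5 on chromosome 14. On chromosome 5, TGFBI and STC2 (lower) and CSF2 (higher) started past 100 Mb, and BHMT2, DAB2, SLC9A3, CMBL and ERAP1 (lower) before it. Genes on 1 chromosome are not independent of each other, and DNA copy number was not measured, so its part in these shares was not tested.

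**Figure D5:**
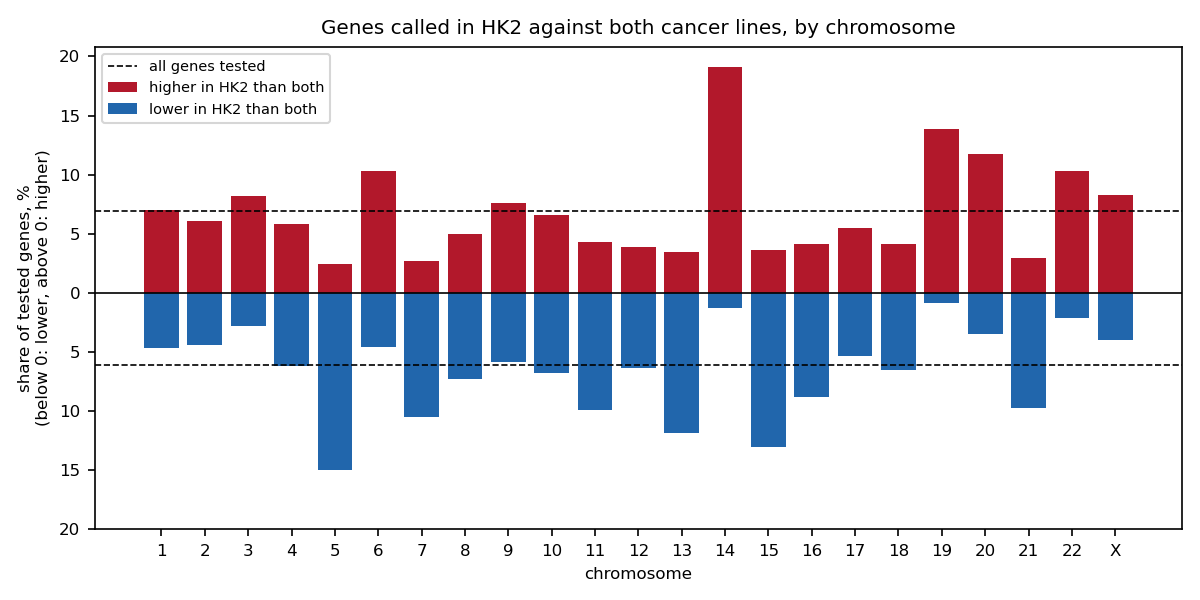
Share of tested genes on each chromosome called higher (above 0, red) or lower (below 0, blue) in HK2 than in both cancer lines; dashed lines mark the 6.9% and 6.15% over all genes tested. Chromosome 14 stands at 19.1% higher and 1.33% lower, and chromosome 5 at 2.46% higher and 15.0% lower.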

How the data were processed

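PolyA RNA of 12 libraries (3 lines, 4 siRNAs) was measured by strand-marking RNA-seq. Per the submitters' processing notes the aligner was STAR 2.4.0g1 and the build GRCh38.p1; the counter, annotation, strand setting and scaling were not given in the sources used here. A single table of FPKM values was deposited by the authors, with 2 decimals for 20979 entries; the unit is inferred from the values. Without a known strand setting, overlapping and antisense genes cannot be told apart. Symbols on more than 1 line (695) and symbols turned into dates (29) are not named.

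The 12276 genes that passed 1 FPKM in 3 or more libraries were fitted as log2(FPKM + 1) in limma 3.58.1 (R 4.3.3, statmod 1.5.0) with line and siRNA as terms, a mean-variance trend and robust moderation, leaving 6 residual degrees of freedom. P-values were adjusted by Benjamini-Hochberg over all genes. The siRNA was kept as a replicate block because matched libraries deviated together (correlations of 0.237 to 0.585, against a median of -0.143 and a highest of 0.196 for others). Deviations were taken from each line's own mean. Where matched libraries correlate, this by itself lowers the correlations of the others. Called genes had an adjusted p under 0.05 and a difference of at least 1 in both comparisons. The procedure was run on simulated data with independent noise, no siRNA effect and added differences well past the threshold. That run does not test calls near the threshold. Effective depth (17.1 to 23.3 M reads) came from whole-read steps met by 81.1 to 92.0% of the single-exon genes used, against 14.7 to 18.4% at other step sizes; it limits precision below about 1 FPKM.

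Named by rule were the 3 markers, PTPN14, LATS1, LATS2 and YAP1, the 12 genes with the largest smaller difference in each direction, and up to 4 called members of each list; a few of these genes and 1 list are not reported here. The members, the lists and the rule were chosen with earlier results of these data known; 4 short lists (meiosis, neural filament, BMP feedback, complement) and the chromosome split were added after the values were seen. The alternatives tried were another pseudocount, no filter, quantile normalisation, no replicate block, other thresholds and moderation, the control libraries alone, and leaving out each library or siRNA.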

Additional observations from a re-analysis of the deposited data

Results flagged for a closer look

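For each of the 109 genes named by rule, the 4 libraries of a line were searched for 1 that stood apart by Dixon's test at the 95% level, on the log2 scale. Of 326 such groups with any spread, 23 (7.1%) were marked; chance marks about 1 in 20. Each library of a line is also the only one with its siRNA, so a library that stands apart and an effect of its siRNA cannot be told apart.

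In HK2, S100A2 was highest with control siRNA (62.9 FPKM, others 55.05 to 55.75). STC2 and PLAT were highest with PTPN14-2, at 10.5 (others 8.36 to 8.58) and 105 FPKM (others 75.7 to 79.3). LATS2 stood highest with PTPN14-1, at 12.6 FPKM (others 8.02 to 8.27), and SLPI was at 0.10 there and at 0 in the others. The HK2 side of the called differences stayed on the same side of both other lines in these 4 called genes; LATS2 was not called.

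In A704, LATS1 fell to 1.49 FPKM with its own siRNA (others 4.85 to 5.07), and LRRN4 was highest there, at 3.37 (others 2.24 to 2.26). With PTPN14-1, DHRS3 (28.4), SPATA18 (4.34) and RBL1 (2.34 FPKM) were lowest. With PTPN14-2, RGS5 (7.34), DAB2 (59.5) and CA2 (256 FPKM) were highest and TGFB2 (3.33) and ST6GAL1 (0.18 FPKM) lowest. With control siRNA, LAMA4 was lowest, at 39.97 FPKM (others 51.1 to 53.3), and SOX11 was at 0.01 and 0 in the others.

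In CAKI-1, CCL20 was highest (2.54 FPKM, others 1.14 to 1.32) and FSTL1 lowest (134 FPKM, others 197 to 203) with control siRNA. RRM2 was lowest with LATS siRNA, at 30.3 FPKM (others 35.7 to 36.8). SLN at 0.05 with LATS siRNA, and SOX11 at 0.01 and DCN at 0.03 with PTPN14-1, stand apart by no more than 0.05 FPKM.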

How the results depend on the processing

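The 847 higher and 755 lower genes were counted again under each alternative. Without the replicate block there were 847 and 755, and no call changed. Dropping the trend and robust moderation also gave 847 and 755. Every siRNA was present in every line, so neither setting alters the log2 differences, and only the p-values can move. Adjusted p alone passed 3549 and 3187 genes, far more than also met the minimum difference. The unchanged counts were thus largely fixed by the design and are no check of the calls. Dropping the filter gave 849 and 755, quantile normalisation 866 and 765, and the control libraries alone, with no test, 892 and 763. Similar totals do not mean the same genes. The control libraries alone shared 779 of the 847 higher and 678 of the 755 lower genes. Without the PTPN14-1 libraries of all lines, 820 and 724 were shared. Leaving out 1 library or 1 siRNA gave 834 to 869 higher and 746 to 774 lower genes. Against A704 these ranges were 1961 to 2002 higher and 2002 to 2042 lower, and against CAKI-1 1536 to 1577 and 1601 to 1635. A pseudocount of 0.1 gave 1137 higher and 1250 lower, since it widens the differences of low genes. A test against a difference of 1 itself (limma treat) gave 584 higher and 479 lower than both, and 1066 lower than CAKI-1. A minimum difference of 2 gave 526 higher and 640 lower than A704, 355 and 369 than CAKI-1, and 210 and 148 than both. Adjusted p alone gave 5402 and 4980, 5072 and 4959, and 3549 and 3187. Among called genes the share that was higher ran from 47.6 to 58.7% over these settings.

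No difference of a named gene reversed its sign. Of 218 such differences, 61 lost their call at a minimum of 2, 12 under treat and 5 with the control libraries alone, WWTR1 against A704 among them (0.91, and an adjusted p of 0.20 under treat). Leaving out 1 library or 1 siRNA ended a call only for SLPI and PSMB10 against A704 and RGS5 and EPAS1 against CAKI-1: their values then ran from -1.00 to -0.92, -0.93 to -0.83 and -0.91 to -0.80, with EPAS1 at 0.98 without PTPN14-2; the libraries are named beside each gene. Depth limits what can be said below about 1 FPKM: a gene listed at 0 is not shown to be silent. With 1 culture line a group, none of these settings tests whether another normal or cancer line would give the same genes.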
